A study of Mus musculus with 2 samples.

Results

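CD8 T cells of subcutaneous Lewis lung carcinoma (LLC) tumors were taken from single-cell RNA-Seq of sorted CD45+ leukocytes by an RNA gate, and their effector, exhaustion, memory and cycling genes other than granzymes were compared between the 2 libraries. LLC cells are a transplantable mouse lung cancer line. Members were chosen by these UMI counts alone. The gate kept a cell when at most 10% of its unique molecular identifiers (UMIs, 1 per captured transcript) came from mitochondrial genes, when Cd3d, Cd3e and Cd3g together had at least 2 UMIs, when Cd8a and Cd8b1 together had at least 2 UMIs, and when the macrophage genes C1qa, C1qb and C1qc together had at most 5. It kept 71 of 2449 cells in the library labelled wt and 110 of 2718 in the library labelled cko, in all 181 of 5167 cells. As a share of cells under the mitochondrial limit this was 2.90% (95% exact binomial interval 2.27 to 3.65) and 4.07% (3.36 to 4.88).

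Both groups of C57BL/6 mice carried loxP sites on both alleles of the microRNA gene miR-21. The cko mice also carried lysmCre, which drives Cre from the lysozyme M gene in macrophages and granulocytes, so CD8 T cells were not a target of the deletion in either group. LLC cells were implanted under the skin at 8 weeks of age, tumors were collected 14 days later (the age in the labels is 10 weeks) and digested with collagenase, and CD45+ cells of 3 mice were pooled into 1 library per group. Since each group was 1 library, nothing here has a replicate check or a test. Every interval below is a 95% interval for counting error alone, and a difference between the libraries is a difference between 2 pools of cells.

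The groups follow the library titles. The text on the cell source names the conditional knockout for the library titled wt, and 1 protocol names a macrophage sort where the design names CD45+ cells, so the groups are called labelled wt and labelled cko throughout. The gene that carries lysmCre, Lyz2, had 16173 CPM (UMIs of the gene in each 1e6 UMIs) in C1q macrophages labelled wt (666 cells with no CD3 UMI and at least 20 C1q UMIs) and 7366 CPM in those labelled cko (864 cells), a log2 ratio of −1.13 (interval −1.15 to −1.12).

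CD8 T cells recognise peptides on MHC class I and kill with perforin and granzymes, and they secrete IFN-γ and chemokines. Under lasting antigen in tumors they take on inhibitory receptors such as PD-1, LAG-3 and TIM-3, a state called exhaustion that is tied to the transcription factor TOX, while a TCF-1+ pool renews the response. Cells that respond to antigen also divide, so cycling genes mark a further state.

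**Figure D1:**
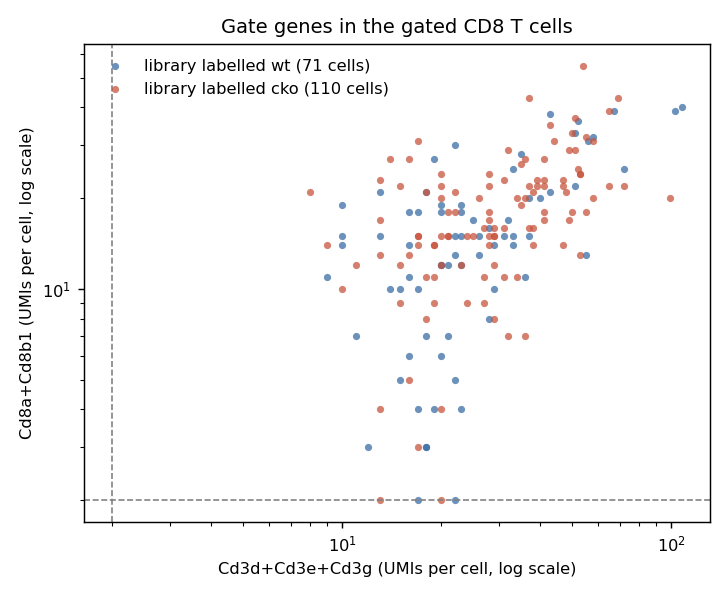
UMIs of the CD8 genes (vertical axis, log scale) against those of the CD3 genes (horizontal axis, log scale) in each gated cell, coloured by library, with dashed lines at the lower limits of 2 UMIs. The lowest CD3 sums were 9 in cells labelled wt and 8 in cells labelled cko, away from the limit, while a few cells of both libraries lie on the CD8 limit.

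T cell genes that the gate did not use were abundant in the gated cells and near 0 in C1q macrophages. Thy1, a surface glycoprotein gene of T cells, had 1048 and 1038 CPM in the gate against 3.94 and 3.48 in those macrophages. Lck, the kinase gene of the CD4 and CD8 coreceptors, had 595 and 566 CPM against 1.69 and 2.41, and Cd2, an adhesion receptor gene, 447 and 382 against 2.48 and 1.61. Of the genes that chose the cells, the CD3 sum had a median of 22 UMIs per cell in the library labelled wt and 29 in that labelled cko, and no cell that met the other limits had a CD3 sum from 1 to 4. The CD8 sum had a median of 15 and 18 UMIs. At this limit 2 and 2 cells had exactly 2 CD8 UMIs, and just outside it 10 and 4 cells had 1. The C1q limit left out 8 and 6 cells, and no cell had a C1q sum of exactly 6. Cd4 had 2 and 3 UMIs over all gated cells, Foxp3 0 and 1, the B cell gene Cd79a 0 and 0, and the NK receptor gene Ncr1 1 and 0. Other markers of other cells were not absent. A list of 10 NK markers, Fcer1g and Tyrobp among them, had 1049 and 1032 UMIs, and 5 CD4 and regulatory T cell markers 130 and 242. A list of 8 dendritic cell markers had 813 and 587 UMIs (log2 ratio of the sums −1.15), and 6 granulocyte markers had 277 and 349. Of 4 gamma delta T cell genes 4 were at 0 in the library labelled wt and 3 in that labelled cko.

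Every gated cell held at least 1 UMI of a macrophage marker, and their sum was unequal between the libraries. The 13 macrophage markers together had from 2 to 382 UMIs per cell in the library labelled wt (median 8) and from 1 to 216 in that labelled cko (median 7), and no marker was at 0. Their median log2 ratio over 12 markers was −0.54, and the ratio of their summed UMIs was −0.93 (interval −1.03 to −0.82). Lyz2 had 890 and 472 UMIs in the gated cells. Csf1r, Adgre1, Cd68, Cd14, Fcgr3 and Itgam together reached 6 UMIs in 5 cells labelled wt (7.04%, interval 2.33 to 15.7) and in 5 labelled cko (4.55%, interval 1.49 to 10.3). Values without those cells, a setting chosen after seeing the data, are given where they turn a direction or move a value.

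The gated cells held 642319 UMIs in the library labelled wt and 1027048 in that labelled cko. Median depth was 6473 UMIs (range 3186 to 33741) and 7991 UMIs (range 3252 to 30065), with medians of 2143 and 2446.5 genes and of 1.75% mitochondrial UMIs in both. The libraries shared 5 cell barcodes, none of them in the gate. Levels below are sums over the gated cells in CPM, ratios are log2 of the library labelled cko over that labelled wt, and shares of cells were taken after each cell was thinned to 3000 UMIs in 1 random draw. Shares from 1 draw move with the draw, so medians over 100 other draws, added after the data were seen, stand beside many of them. A gene is called higher or lower past 1.5-fold with at least 30 UMIs over both libraries. Of 5441 such genes 490 (9.01%) were higher and 360 (6.62%) were lower in the library labelled cko, and their median ratio was 0.01.

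**Figure D2:**
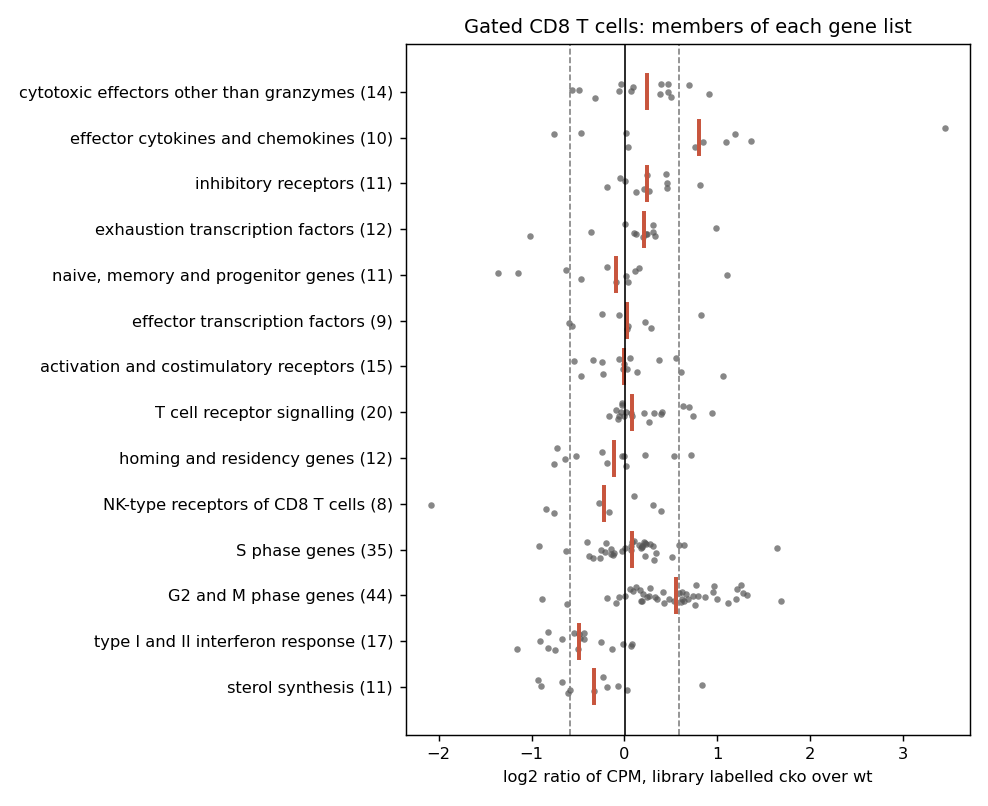
Log2 ratio of CPM, library labelled cko over labelled wt, for each member of 14 gene lists with at least 30 UMIs (grey points, the number of members in parentheses), with the list median as a red bar, the median of all genes as a black line and 1.5-fold as dashed lines. Effector cytokines (median 0.80) and G2 and M phase genes (0.56) lie to the right, and interferon response genes (−0.49) to the left.

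Killing genes other than granzymes had few calls, at a share near that of all genes. Of 15 cytotoxic effectors 14 had enough UMIs, 2 were higher (14.3%, against 9.01% of all genes), 0 were lower (against 6.62%), and their median ratio was 0.24. Prf1, which encodes the pore former perforin, had 121 and 189 UMIs, or 188 and 184 CPM (log2 ratio −0.03, interval −0.37 to 0.31). Nkg7, a granule membrane protein gene, was among the most abundant with 3176 and 3390 CPM (0.09, interval 0.01 to 0.17). Fasl, the death receptor ligand, had 101 and 106 CPM (0.07, interval −0.39 to 0.53). The perforin gene and Fasl thus had intervals that span 0.

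Serpinb9, a granzyme B inhibitor that protects killer cells from their own granules, had 385 and 623 CPM (0.70, interval 0.48 to 0.91), and 0.74 without the cell with the most UMIs in each library. A UMI of it was seen in 47.9% and 64.5% of thinned cells. Its relative Serpinb6b had 470 and 666 CPM (0.50, interval 0.30 to 0.70), within 1.5-fold. Stx11, a syntaxin gene needed for granule release, rested on 20 and 60 UMIs (0.91, interval 0.16 to 1.72). Proteases of the granule lay on the other side, with Ctsw at 444 and 355 CPM (−0.32, interval −0.55 to −0.09) and Ctsc, which activates granzymes, at 511 and 347 CPM (−0.56, interval −0.78 to −0.34). One cell labelled wt held 84 of the 328 Ctsc UMIs there, and without the top cells the ratio was −0.29. Tnfsf10, which encodes TRAIL, had 18 and 11 UMIs, too few for a call.

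Cytokine and chemokine genes had a list median above that of all genes. Of 15 genes 10 had enough UMIs, and the median ratio was 0.80. Of the 10, 6 were higher (60%, against 9.01% of all genes) and 1 was lower (10%, against 6.62%). The summed UMIs of the list, of which Ccl5 made up 1524 of 2782 and 1764 of 4538, had a ratio of 0.03 (interval −0.04 to 0.10). The direction did not hold in the 23 and 25 cells with no C1q UMI, where the median was −0.25. Ifng (chromosome 10, 118441046 to 118445892), the gene of IFN-γ, had 128 and 369 UMIs, or 199 and 359 CPM (0.85, interval 0.56 to 1.15). It was seen in 19 of 71 thinned cells labelled wt (26.8%, interval 16.9 to 38.6) and in 44 of 110 labelled cko (40.0%, interval 30.8 to 49.8), against 0.150% and 0.347% of C1q macrophages. The intervals of the 2 shares overlap. The cell with the most Ifng held 15 UMIs in the library labelled wt and 60 in that labelled cko, and without these the ratio was 0.77.

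The Ifng ratio depended on cells near the gate. With a C1q limit of 10 UMIs, added after the data were seen, 75 and 112 cells passed and the ratio was 0.32. Among the cells labelled wt that this adds were 1 of 37859 UMIs with 57 Ifng UMIs and 1 of 43564 UMIs with 18. Outside the gate, cells with at least 2 CD3 UMIs held 436 Ifng UMIs in the library labelled wt, 343 of them in 1 cell with 3 CD3 UMIs and no CD8 UMI, and 19 in that labelled cko.

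Ccl3 (chromosome 11, 83647844 to 83649355) and Ccl4 (chromosome 11, 83662584 to 83664683), neighbouring chemokine genes, were higher in summed UMIs, with shares of cells that lay close. Ccl3 had 96 and 394 UMIs (149 and 384 CPM, log2 ratio 1.36, interval 1.03 to 1.70), and was seen in 19.7% and 17.3% of thinned cells (medians over 100 draws 18.3% and 22.7%). Ccl4 had 256 and 873 UMIs (399 and 850 CPM, 1.09, interval 0.89 to 1.30), in 33.8% and 35.5% of thinned cells. One cell labelled cko held 339 of the Ccl4 UMIs. Without the cells with high doublet scores the Ccl4 ratio was 0.24 and that of Ccl3 0.88, and in the cells with no C1q UMI they were −0.25 and 0.79. C1q macrophages had 47.4 and 81.2 CPM of Ccl3 and 125 and 130 CPM of Ccl4.

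Xcl1, the chemokine gene for cross-presenting dendritic cells, had 20 and 73 UMIs (1.19, interval 0.46 to 1.98), 41 of them in 1 cell labelled cko. Ccl1 had 2 and 35 UMIs, 18 of them in 1 cell, and a ratio of CPM of 3.45 (interval 1.49 to 6.55). Ccl9 had 27 and 73 UMIs (0.76, interval 0.10 to 1.45), 33 of them in 1 cell. These 3 genes thus rested on few cells. Ccl5, by far the most abundant chemokine gene here, went the other way with 2373 and 1718 CPM (−0.47, interval −0.57 to −0.37), and was seen in 60.6% and 63.6% of thinned cells (medians over 100 draws 64.8% and 62.7%). Spp1, which encodes osteopontin, was the 1 lower gene with 486 and 287 CPM (−0.76, interval −0.99 to −0.52). The summed macrophage markers of the gated cells were also lower (−0.93), and the part of other cells in the Spp1 value was not tested. Ltb (557 and 563 CPM, 0.01, interval −0.18 to 0.21) and Csf1 (56.0 and 57.4 CPM, 0.04, interval −0.59 to 0.68) were near 0. Tnf had 8 and 7 UMIs, Il2 9 and 6, and Csf2 2 and 2, so a difference in these cytokines was not detectable at this depth.

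**Figure D3:**
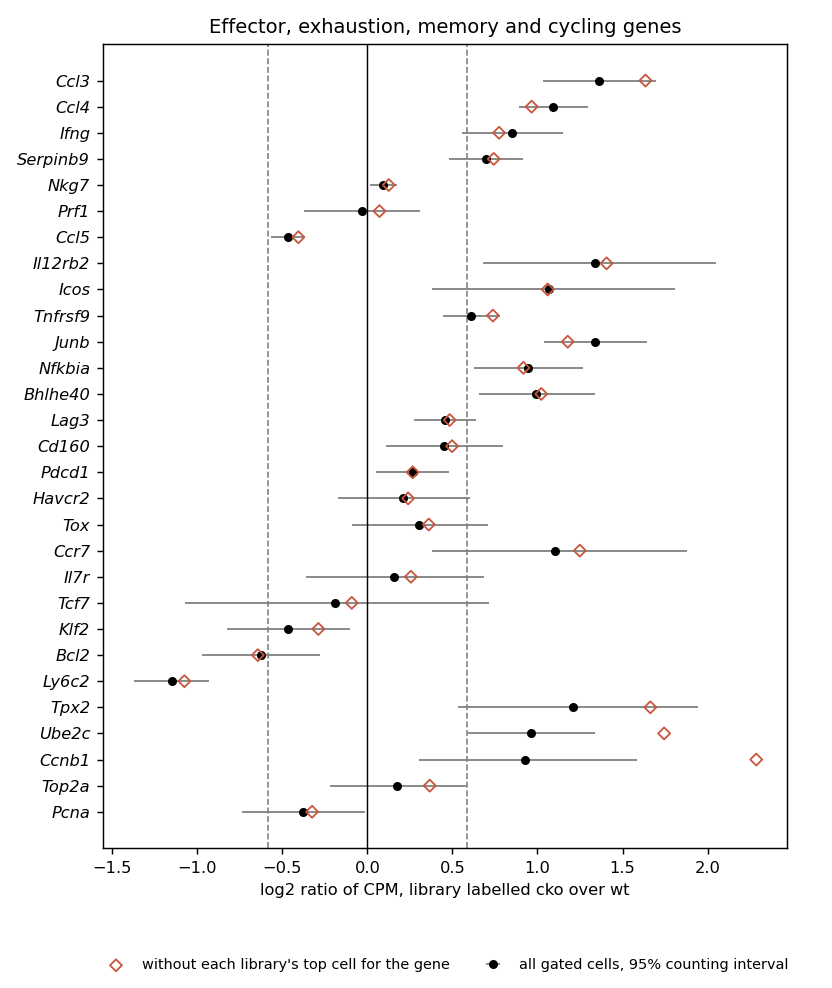
Log2 ratio of CPM, library labelled cko over labelled wt, for effector, exhaustion, memory and cycling genes in gated cells (black points, bars are 95% counting intervals), with the ratio without each library's top cell for that gene as open diamonds and 1.5-fold as dashed lines. Ccl3 (1.36), Junb (1.34) and Il12rb2 (1.34) lie farthest right and Ly6c2 (−1.15) farthest left, and the diamonds of Ube2c (1.74) and Ccnb1 (2.29) lie outside their bars.

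Inhibitory receptors were close in level, with small ratios mostly above 0. Of 16 genes 11 had enough UMIs, and 9 of them had ratios above 0, with a median of 0.24. Past 1.5-fold 1 was higher (9.09%, against 9.01% of all genes) and 0 were lower (against 6.62%). Pdcd1 (chromosome 1, 94038305 to 94052553), the gene of PD-1, had 274 and 527 UMIs, or 427 and 513 CPM (0.27, interval 0.05 to 0.48). It was seen in 54.9% of thinned cells labelled wt (interval 42.7 to 66.8) and 60.9% of those labelled cko (interval 51.1 to 70.1), against 0.751% and 0.116% of C1q macrophages. Lag3 (chromosome 6, 124904361 to 124911705), whose product binds MHC class II, had 565 and 775 CPM (0.46, interval 0.27 to 0.64), in 57.7% and 71.8% of thinned cells. Havcr2, the gene of TIM-3, had 135 and 157 CPM (0.21, interval −0.17 to 0.60), in 26.8% and 29.1% of cells, with 9.01% and 8.68% of C1q macrophages also positive.

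Ctla4 was the member past 1.5-fold, on 26 and 73 UMIs (0.81, interval 0.15 to 1.52), and was seen in 12.7% and 11.8% of thinned cells (medians over 100 draws 11.3% and 14.5%). Cd160, a receptor of activated CD8 T cells and NK cells, had 162 and 221 CPM (0.45, interval 0.11 to 0.80), and in the cells with no C1q UMI its ratio was −0.62. Klrc1, which encodes the NKG2A receptor, had 579 and 633 CPM (0.13, interval −0.06 to 0.32). Entpd1, the gene of the ectonucleotidase CD39, had 51.4 and 51.6 CPM (0.01, interval −0.65 to 0.68). Tigit had 2 and 7 UMIs and could not be compared.

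Shares of cells that carried several of these receptors at once overlapped between the libraries, and their order turned with the thinning draw. Among Pdcd1, Ctla4, Lag3, Havcr2 and Tigit, 3 or more were detected in 20 of 71 thinned cells labelled wt (28.2%, interval 18.1 to 40.1) and in 27 of 110 labelled cko (24.5%, interval 16.8 to 33.7). Over 100 other draws the median shares were 25.4% (range 15.5 to 33.8) and 29.1% (range 22.7 to 41.8), and the share labelled cko was the higher one in 90 of them. Without the cells with macrophage UMIs the shares were 19.7% and 31.4% in 1 draw, with medians over 100 draws of 27.3% and 30.5%. In the cells with no C1q UMI they were 17.4% and 28.0%, with medians of 26.1% and 24.0%. Exactly 2 were detected in 23.9% (interval 14.6 to 35.5) and 41.8% (interval 32.5 to 51.6), with medians over the draws of 28.2% and 37.3%. None of the 5 was detected in 29.6% (interval 19.3 to 41.6) and 20% (interval 12.98 to 28.7), with medians of 26.8% and 16.8%, and this share was lower in the library labelled cko in 100 of 100 draws. In the cells with no C1q UMI its order was the opposite, with medians of 17.4% and 20% and the share labelled cko higher in 88 of 100 draws. The share with 3 or more was 8.00% and 11.1% in CD8-negative T cells (50 and 63 cells with the same CD3 and C1q limits, no CD8 UMI and no UMI of the NK genes Ncr1 and Klrb1c). In C1q macrophages it was 0 of 666 and 0 of 864, with exact intervals up to 0.552% and 0.426%. The limit of 3 cells set here for a count of 0 would be 0.450% and 0.347%.

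The share of cells with Ifng was set beside the number of these receptors within each library. Ifng was seen in 8 of 20 cells with 3 or more receptors labelled wt (40.0%, interval 19.1 to 63.9) and in 11 of the other 51 (21.6%, interval 11.3 to 35.3). In the library labelled cko it was seen in 17 of 27 (63.0%, interval 42.4 to 80.6) and in 27 of the other 83 (32.5%, interval 22.6 to 43.7). The paired intervals overlap in both libraries. Over 100 other draws the cells with 3 or more receptors had the larger share with Ifng in 76 draws labelled wt (medians 33.3% and 26.2%) and in 100 labelled cko (54.7% and 31.4%).

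**Figure D4:**
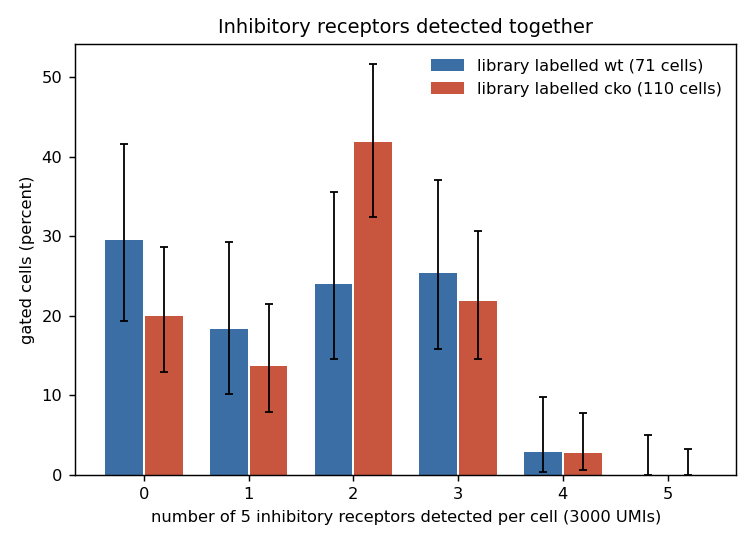
Share of gated cells (vertical axis, percent) by the number of the receptor genes Pdcd1, Ctla4, Lag3, Havcr2 and Tigit detected after thinning to 3000 UMIs, for the library labelled wt (blue, 71 cells) and labelled cko (red, 110 cells), with exact binomial 95% intervals. In this 1 draw the bars differ most at 2 receptors (23.9% and 41.8%) and lie close together at 3 (25.4% and 21.8%), where the medians over 100 other draws were 19.7% and 26.4%.

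Transcription factors linked to exhaustion were called about as often as all genes. Of 18 genes 12 had enough UMIs, 1 was higher (8.33%, against 9.01% of all genes), 1 was lower (8.33%, against 6.62%), and the median ratio was 0.22. Tox had 81 and 160 UMIs (126 and 156 CPM, 0.30, interval −0.09 to 0.71), in 31.0% and 30% of thinned cells. Nr4a2, an orphan nuclear receptor gene induced by antigen signals, had 101 and 126 CPM (0.31, interval −0.13 to 0.76). Ikzf2, the gene of Helios, had 134 and 168 CPM (0.33, interval −0.05 to 0.72). Eomes (17 and 32 UMIs, 0.24, interval −0.66 to 1.18) and Batf (84.1 and 84.7 CPM, 0.01, interval −0.50 to 0.53) had intervals that span 0, as did the 3 genes before them.

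Bhlhe40 (chromosome 6, 108660629 to 108666925), a factor that sustains mitochondrial metabolism and cytokine output in T cells, was the higher one. It had 95 and 302 UMIs, or 148 and 294 CPM (0.99, interval 0.65 to 1.34), and no cell held more than 13. Thinned cells with a UMI were 26.8% in the library labelled wt (interval 16.9 to 38.6) and 45.5% in that labelled cko (interval 35.9 to 55.2), against 4.80% and 5.21% of C1q macrophages. Its ratio was 1.35 in non-cycling cells and 0.96 without the cells with macrophage UMIs. Id2, an inhibitor of E proteins that is abundant in effector cells, had 1031 and 1181 CPM (0.20, interval 0.06 to 0.34). Maf was the lower one on 19 and 15 UMIs (−1.02, interval −2.10 to 0.04), 11 and 7 of them in 1 cell each. Tox2 was at 0 in both libraries, Prdm1 had 13 and 15 UMIs and Nr4a1 15 and 14.

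Genes of naive, memory and progenitor cells did not share a direction. Of 16 genes 11 had enough UMIs, and the median ratio was −0.09. Of the 11, 1 was higher (9.09%, against 9.01% of all genes) and 3 were lower (27.3%, against 6.62%). The summed UMIs of the list, of which Ly6c2 made up 407 of 948 and 293 of 988, had a ratio of −0.62 (interval −0.75 to −0.49). Tcf7 (chromosome 11, 52252371 to 52283014), the gene of the progenitor factor TCF-1, had 20 and 28 UMIs (31.1 and 27.3 CPM, −0.19, interval −1.07 to 0.71), and Lef1 had 14 and 23 (0.04, interval −0.98 to 1.11). Il7r, the receptor gene that memory cells keep, had 77.8 and 86.7 CPM (0.15, interval −0.36 to 0.68). At these counts, differences within the bounds given were not detectable.

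Ccr7, which guides T cells to lymph nodes, was the higher member, with 21 and 72 UMIs (32.7 and 70.1 CPM, 1.10, interval 0.38 to 1.88). Ly6c2 (chromosome 15, 75108158 to 75111970), a surface marker of central memory CD8 T cells that monocytes also express, had 407 and 293 UMIs, or 634 and 285 CPM (−1.15, interval −1.37 to −0.93). Its ratio was −1.18 without the cells with macrophage UMIs. Bcl2, a survival gene, had 216 and 140 CPM (−0.63, interval −0.97 to −0.28), and Klf2, a quiescence factor gene, had 187 and 135 CPM (−0.47, interval −0.83 to −0.10). At least 1 UMI of a set of 6 memory and progenitor genes, Tcf7 and Il7r among them, was seen in 25 of 71 thinned cells (35.2%, interval 24.2 to 47.5) and 51 of 110 (46.4%, interval 36.8 to 56.1), against 12.0% and 11.9% of C1q macrophages. Over 100 other draws the medians were 40.8% and 43.6%.

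Activation and costimulatory receptors were centred on a ratio of 0. Of 15 genes with enough UMIs 2 were higher (13.3%, against 9.01% of all genes), 0 were lower (against 6.62%), 7 had ratios above 0 and 8 below, and the median was 0.00. Tnfrsf9, the gene of the costimulator 4-1BB, had 410 and 1001 UMIs, or 638 and 975 CPM (0.61, interval 0.44 to 0.78). Icos had 23 and 77 UMIs (1.07, interval 0.38 to 1.81) and was seen in 4 of 71 thinned cells (5.63%, interval 1.56 to 13.8) and 23 of 110 (20.9%, interval 13.7 to 29.7). The Icos medians over 100 other draws were 8.45% (range 4.23 to 18.3) and 20% (range 14.5 to 26.4). Tnfrsf4, the gene of OX40, had 196 and 289 CPM (0.56, interval 0.25 to 0.87), just under 1.5-fold. Tnfrsf18, the gene of GITR, had 363 and 362 CPM (0.00, interval −0.24 to 0.24).

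Of 15 cytokine receptors 1 was higher (6.67%, against 9.01% of all genes) and 0 were lower (against 6.62%). The higher one was Il12rb2, which encodes the signalling chain of the IL-12 receptor. It had 24 and 97 UMIs, or 37.4 and 94.4 CPM (1.34, interval 0.68 to 2.05), in 9.86% and 22.7% of thinned cells. Ifngr1 had 394 and 491 CPM (0.32, interval 0.10 to 0.54) and Il2rb 392 and 412 CPM (0.07, interval −0.16 to 0.30).

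Genes downstream of the T cell receptor had 4 of 20 members higher (20%, against 9.01% of all genes) and 0 lower (against 6.62%), with a median ratio of 0.08. Nfkbia, the inhibitor gene that NF-κB induces, had 171 and 329 CPM (0.94, interval 0.63 to 1.27). Thinned cells with a UMI of it were 50.7% and 42.7%, and the medians over 100 draws were 39.4% and 43.6%. Sh2d2a, an adaptor gene of activated T cells, had 274 and 424 CPM (0.63, interval 0.37 to 0.89), in 47.9% and 62.7% of cells. Dusp5, a phosphatase gene induced by ERK signals, had 34 and 91 UMIs (0.74, interval 0.16 to 1.36). Of 12 immediate-early genes 2 were higher (16.7%, against 9.01% of all genes), 0 were lower (against 6.62%), and the median ratio was 0.09. One was Junb, an AP-1 subunit, with 114 and 460 UMIs (1.34, interval 1.04 to 1.64). A single cell labelled cko held 91 of them, and without the top cells the ratio was 1.18.

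Effector transcription factors had a median ratio of 0.03 over 9 genes. Tbx21, the gene of T-bet, had 85.6 and 56.5 CPM (−0.60, interval −1.16 to −0.04), and Runx2 had 19 and 54 UMIs (0.83, interval 0.05 to 1.67). Runx3, which sets CD8 T cell identity, had 101 and 97.4 CPM (−0.06, interval −0.52 to 0.42).

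Homing and residency genes had 1 higher (8.33%, against 9.01% of all genes) and 3 lower (25.0%, against 6.62%) of 12 members, with a median ratio of −0.11. Cxcr6, the chemokine receptor gene of tumor-resident T cells, was abundant and level at 713 and 698 CPM (−0.03, interval −0.20 to 0.14). The lower ones included Cxcr3 (56.0 and 33.1 CPM, −0.76, interval −1.48 to −0.04) and Ccr2 (98.1 and 59.4 CPM, −0.72, interval −1.26 to −0.19). Ccr2 was at 0.02 in non-cycling cells. Rgs1, a residency gene, had 204 and 295 CPM (0.53, interval 0.23 to 0.84). Itgae, which encodes the residency integrin CD103, was at 0 in both libraries, and Itga1 had 6 and 5 UMIs.

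NK-type receptor genes had 3 of 8 members lower (37.5%, against 6.62% of all genes) and 0 higher (against 9.01%), with a median ratio of −0.22. The list of NK cell markers also holds Fcer1g and Tyrobp. The ratio of its summed UMIs in the gated cells was −0.70 (interval −0.83 to −0.58). Klrd1, the partner gene of the NKG2 receptors, had 1530 and 1640 CPM (0.10, interval −0.01 to 0.22). Klrk1, the gene of NKG2D, had 557 and 461 CPM (−0.28, interval −0.48 to −0.07). The lower members were Klra7 with 37 and 14 UMIs (−2.08, interval −3.08 to −1.16), Fcer1g with 855 and 475 CPM (−0.85, interval −1.03 to −0.67) and Tyrobp with 375 and 222 CPM (−0.76, interval −1.02 to −0.49). Fcer1g and Tyrobp encode adaptors that macrophages also use, and Fcer1g stood at 6025 and 6030 CPM in C1q macrophages. Without the cells with macrophage UMIs the ratios of Fcer1g and Tyrobp were −0.79 and −0.60.

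Shares of cycling cells overlapped between the libraries. A cell was called cycling with 3 or more UMIs of 20 core genes after thinning, a range of a score and not a cell type. It held 19 of 71 cells labelled wt (26.8%, interval 16.9 to 38.6) and 33 of 110 labelled cko (30%, interval 21.6 to 39.5), with 9 and 13 cells at 2 to 4 UMIs, near the limit. Over 100 other draws the medians were 28.2% (range 22.5 to 33.8) and 30% (range 27.3 to 33.6). Without the cells with macrophage UMIs the shares were 34.8% and 30.5% in 1 draw, with medians of 28.8% and 30.5%. In the 23 and 25 cells with no C1q UMI they were 21.7% and 12.0%, with medians of 21.7% and 8.00%, the opposite order. Cells with 10 or more core UMIs were 12.7% (interval 5.96 to 22.7) and 18.2% (interval 11.5 to 26.7), and with no C1q UMI the medians over the draws were in the opposite order, 17.4% and 8.00%. Cycling cells were deeper than the others, with median UMIs of 12040 against 6196 in the library labelled wt and 13290 against 6802 in that labelled cko. The same limit gave 24.0% and 22.2% of CD8-negative T cells, 5.56% and 17.4% of NK cells (54 and 46 cells with no CD3 UMI, at least 2 UMIs of Ncr1 and Klrb1c and the same C1q limit) and 8.71% and 12.4% of C1q macrophages.

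**Figure D5:**
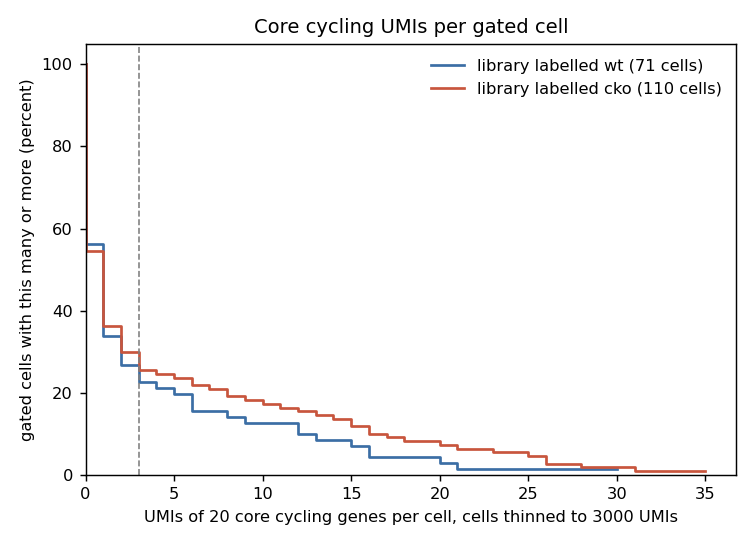
Share of gated cells (vertical axis, percent) with at least the number of core cycling UMIs on the horizontal axis, after thinning to 3000 UMIs, for the library labelled wt (blue, 71 cells) and labelled cko (red, 110 cells), with the limit of 3 UMIs as a dashed line. At the limit the shares are 26.8% and 30%, and from 2 UMIs on the red line lies above the blue one, up to ends at 35 and 30 UMIs.

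Genes of the G2 and M phases, in which the cell prepares for and carries out division, had a median ratio above that of all genes. The median of S phase genes lay near that of all genes, and the difference between these lists was not tested. Of 54 G2 and M genes 44 had enough UMIs, and 22 of these were higher (50%, against 9.01% of all genes). Lower were 2 (4.55%, against 6.62%), 39 had ratios above 0, and the median was 0.56. S phase genes had 3 higher (8.57%, against 9.01% of all genes) and 2 lower (5.71%, against 6.62%) of 35, with a median of 0.09. In non-cycling cells alone the G2 and M median was 0.06, and in the cells with no C1q UMI it was −0.33. In the other classes the same median was −0.32 in CD8-negative T cells, 0.45 in NK cells and 0.50 in C1q macrophages, so values above 0 were not particular to the gated cells.

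Several higher members act late in the cycle. Ube2c, the ubiquitin-conjugating enzyme of the anaphase-promoting complex, had 81 and 252 UMIs, or 126 and 245 CPM (0.96, interval 0.59 to 1.34). Its coactivator Cdc20 had 39 and 106 UMIs (0.77, interval 0.22 to 1.33). Tpx2, a spindle assembly factor gene, had 23 and 85 (1.21, interval 0.53 to 1.94), and Cdca3, which promotes entry into mitosis, had 22 and 76 (1.11, interval 0.41 to 1.87). Ccnb1, the gene of cyclin B1, had 29 and 88 (0.92, interval 0.30 to 1.58), 19 of those labelled wt in 1 cell. Cks2 had 114 and 198 CPM (0.80, interval 0.41 to 1.20). In one cell labelled wt stood 42 of the Ube2c UMIs, and without each library's top cell the ratios of Ube2c, Tpx2 and Ccnb1 were 1.74, 1.66 and 2.29. The direction of some turned in parts of the gate. In the cells with no C1q UMI Cdc20 was at −1.92 and Tpx2 at −0.65, and in non-cycling cells, which held 5 and 1 UMIs of Cdc20, 4 and 1 of Cdca3 and 1 and 1 of Tpx2, they were at −2.85 (interval −8.41 to 0.31), −2.53 (interval −8.15 to 0.81) and −0.53 (interval −6.82 to 5.77).

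Other cycling genes lay nearer to 0. Mki67, the gene of the proliferation marker Ki-67, had 19 and 48 UMIs (0.66, interval −0.13 to 1.51) and Top2a, the gene of topoisomerase II alpha, 129 and 146 CPM (0.18, interval −0.22 to 0.58). Cenpa, the centromeric histone gene, had 221 and 319 CPM (0.53, interval 0.24 to 0.83). The 2 lower members were Ctcf (93.4 and 50.6 CPM, −0.88, interval −1.45 to −0.32), a chromatin organiser not limited to mitosis, and Ndc80 (26 and 27 UMIs, −0.62, interval −1.45 to 0.21). In S phase, Pcna, the sliding clamp gene, had 182 and 140 CPM (−0.38, interval −0.74 to −0.01) and Mcm6, a helicase subunit gene, 212 and 183 (−0.21, interval −0.54 to 0.12). Rrm1, a subunit gene of ribonucleotide reductase, had 84.1 and 127 CPM (0.59, interval 0.12 to 1.08), and Rad51ap1 rested on 5 and 25 UMIs (1.64, interval 0.23 to 3.39).

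G2 and M genes are known to share promoter elements, a CCAAT box and the cell cycle homology region (CHR), so promoters of 4 members above are shown. The sequences are from RefSeq on GRCm38.p6, 250 bases before and 50 bases after the start, 5′ to 3′ on the gene's strand, with CCAAT and the CHR forms TTTGAA and TTCGAA on either strand in capitals. Overlapping matches run together. Ube2c lies at chr2:164769679-164769978 on the plus strand, Ccnb1 at chr13:100786437-100786736 on the minus strand, Cdc20 at chr4:118437294-118437593 on the minus strand and Cdca3 at chr6:124829926-124830225 on the plus strand.
Ube2c: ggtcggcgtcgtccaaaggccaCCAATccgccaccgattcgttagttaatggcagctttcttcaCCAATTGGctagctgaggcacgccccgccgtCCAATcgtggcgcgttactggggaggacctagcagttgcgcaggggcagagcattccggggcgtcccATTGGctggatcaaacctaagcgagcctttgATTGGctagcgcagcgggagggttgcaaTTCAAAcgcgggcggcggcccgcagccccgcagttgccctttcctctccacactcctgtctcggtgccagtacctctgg
Ccnb1: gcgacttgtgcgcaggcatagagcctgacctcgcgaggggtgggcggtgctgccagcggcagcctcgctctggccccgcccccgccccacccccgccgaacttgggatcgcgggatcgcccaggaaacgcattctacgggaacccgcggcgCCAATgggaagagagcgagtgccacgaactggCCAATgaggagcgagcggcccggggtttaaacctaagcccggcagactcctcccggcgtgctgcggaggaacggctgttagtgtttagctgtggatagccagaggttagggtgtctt
Cdc20: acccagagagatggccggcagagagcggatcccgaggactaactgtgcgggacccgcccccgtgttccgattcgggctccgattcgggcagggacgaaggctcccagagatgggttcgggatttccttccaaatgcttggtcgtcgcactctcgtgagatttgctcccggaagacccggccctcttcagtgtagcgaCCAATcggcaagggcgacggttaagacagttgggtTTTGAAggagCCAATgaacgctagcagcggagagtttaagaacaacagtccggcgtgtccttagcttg
Cdca3: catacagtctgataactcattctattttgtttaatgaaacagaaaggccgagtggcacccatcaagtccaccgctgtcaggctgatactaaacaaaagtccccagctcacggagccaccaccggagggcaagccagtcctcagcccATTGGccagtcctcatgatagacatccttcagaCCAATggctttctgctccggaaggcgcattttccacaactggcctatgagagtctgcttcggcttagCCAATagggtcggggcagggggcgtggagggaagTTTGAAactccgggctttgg

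The Ube2c window held 6 CCAAT matches and 1 CHR match, that of Cdc20 2 and 1, that of Cdca3 3 and 1, and that of Ccnb1 2 and 0. Only the CHR forms TTTGAA and TTCGAA were searched, so 0 matches does not mean that a window lacks every CHR form. Of 51 promoters of G2 and M list genes 38 (74.5%) held CCAAT, 38 (74.5%) held a CHR form and 31 (60.8%) held both. Of all 32851 promoters 37.4% held CCAAT, 19.2% a CHR form and 7.52% both. Of 34 promoters of S phase genes 67.6% held CCAAT, 17.6% a CHR form and 11.8% both. A match is a description of letters in the window, not a binding site.

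Within each library the cycling cells carried lower CPM of several memory genes. All 20 Tcf7 UMIs labelled wt and all 28 labelled cko were in non-cycling cells. Ccr7 had 1 UMI in cycling against 20 in non-cycling cells labelled wt, and 5 against 67 labelled cko. The log2 ratio of CPM, cycling over non-cycling, of Ly6c2 was −2.73 (interval −3.28 to −2.22) and −1.99 (interval −2.47 to −1.54), and that of Bcl2 −1.32 (interval −1.99 to −0.71) and −2.04 (interval −2.75 to −1.39). Ccl5 had the same order, −2.76 (interval −3.03 to −2.49) and −1.11 (interval −1.26 to −0.95).

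Ifng stood the other way, with higher CPM in cycling than in non-cycling cells of both libraries. The ratio was 0.91 (interval 0.39 to 1.44) labelled wt and 0.65 (interval 0.34 to 0.95) labelled cko. Ldha, a glycolysis gene, had 0.81 (interval 0.64 to 0.98) and 0.64 (interval 0.51 to 0.78). Pdcd1 was at 0.50 (interval 0.14 to 0.85) and −0.24 (interval −0.50 to 0.02), and Tnfrsf9 at 0.60 (interval 0.32 to 0.89) and −0.42 (interval −0.61 to −0.24), so these receptors were not ordered alike in the libraries. A memory gene was detected in 2 of 19 cycling cells labelled wt (10.5%, interval 1.30 to 33.1) and 11 of 33 labelled cko (33.3%, interval 18.0 to 51.8), and in 44.2% and 51.9% of non-cycling cells. Over 100 other draws the medians were 21.4% and 30.3% of cycling and 49.02% and 49.3% of non-cycling cells.

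Between the libraries, non-cycling cells alone gave ratios of 0.94 for Ifng (interval 0.51 to 1.39), 1.01 for Ccl4 (interval 0.77 to 1.25) and 1.04 for Tnfrsf9 (interval 0.81 to 1.27). In cycling cells these were 0.68 (interval 0.28 to 1.10), 1.38 (interval 1.00 to 1.78) and 0.01 (interval −0.24 to 0.27). The Ccl4 value of non-cycling cells rested on single cells, with 85 of 188 UMIs labelled wt and 339 of 544 labelled cko in 1 cell each. It was 0.47 (interval 0.12 to 0.82) without both of these cells and −0.40 without the cell labelled cko alone. In cycling cells 1 cell labelled cko held 60 of 203 Ifng UMIs and 1 held 112 of 329 Ccl4 UMIs, and without the top cell labelled cko alone the ratios were 0.18 and 0.78. For Ifng and Tnfrsf9 in non-cycling cells the ratios without both top cells were 0.84 and 1.16. Tcf7 in non-cycling cells had −0.04 (interval −0.92 to 0.86).

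Interferon response genes had mostly lower counts over all gated cells, a direction that did not hold in every part of the gate. Of 17 genes with enough UMIs 6 were lower (35.3%, against 6.62% of all genes) and 0 were higher (against 9.01%). Ratios below 0 were found for 15, and the median was −0.49. Gbp2, an interferon-induced GTPase gene, had 93.4 and 41.9 CPM (−1.16, interval −1.76 to −0.57), in 26.8% and 15.5% of thinned cells. Irf7, the amplifier of type I interferon, had 99.6 and 56.5 CPM (−0.82, interval −1.36 to −0.28) and Bst2, the gene of tetherin, 171 and 107 CPM (−0.68, interval −1.07 to −0.28). Isg15 had 101 and 86 UMIs (−0.91, interval −1.34 to −0.48), 41 of those labelled wt in 1 cell. Ifit1 had 42 and 38 UMIs (−0.82, interval −1.49 to −0.15), 25 of those labelled wt in 1 cell. The macrophage markers were also lower (median −0.54), and without the 5 and 5 cells with macrophage UMIs the list median was −0.06, the ratio of Isg15 0.14 and that of Ifit1 0.41. In the cells with no C1q UMI the list median was 0.039 and the ratios turned to 0.37 for Gbp2, 0.84 for Irf7, 0.34 for Bst2, 0.72 for Isg15 and 0.95 for Ifit1, with intervals that all span 0 (−1.01 to 1.84 for Gbp2 and −0.40 to 2.46 for Ifit1, for example). The medians of the list in other classes were −0.30 in CD8-negative T cells, −0.80 in NK cells and −0.15 in C1q macrophages.

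Metabolic lists were near the median of all genes for glycolysis (0.15 over 15 genes) and below it for sterol synthesis (−0.32 over 11 genes). Of these 11, 5 were lower (45.5%, against 6.62% of all genes) and 1 was higher (9.09%, against 9.01%). Ldha had 1750 and 1787 CPM (0.03, interval −0.08 to 0.14), while Slc16a3, a lactate exporter gene, had 68.5 and 110 CPM (0.68, interval 0.17 to 1.22). Fdps, an enzyme gene of the mevalonate pathway, had 145 and 75.9 CPM (−0.93, interval −1.38 to −0.48), and Insig1, the brake of sterol synthesis, 21 and 18 UMIs (−0.90, interval −1.89 to 0.08). Heat shock genes (−0.16 over 15) and regulators of cell death (0.05 over 12, and −0.14 for their summed UMIs, interval −0.28 to −0.0071) were close to 0. Among the latter, Pmaip1, the gene of the killer protein NOXA, had 27 and 20 UMIs (−1.11, interval −2.02 to −0.22).

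Outside all lists, among 4514 genes in at least 20 gated cells, the 10 with the highest ratios were P2ry10, Rrn3, Dtnb, Golga5, Zfp945, Fam213a, Ndrg1, Rab11fip2, RP23-299D2.2 and Gadd45b. These values chose the genes and are a description. P2ry10, a lysophosphatidylserine receptor gene of lymphocytes, had 5 and 36 UMIs in 5 and 31 cells (2.17, interval 0.82 to 3.88). Fam213a had 12 and 59 UMIs (1.62, interval 0.71 to 2.65), and Gadd45b, which is induced by stress and NF-κB, 9 and 40 (1.47, interval 0.41 to 2.70). Rrn3 and Ndrg1 were below 0 in the cells with no C1q UMI.

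The 10 lowest were Vopp1, Aif1, Ifitm1, Kdm2a, Cd74, Spry2, Adamts10, Tgfb1, Ddi2 and Ly86. Ifitm1, an interferon-induced membrane protein gene, had 586 and 298 UMIs (−1.65, interval −1.86 to −1.45), 110 of those labelled wt in 1 cell, and its ratio was −1.63 without the cells with macrophage UMIs. Tgfb1, the gene of TGF-β1, had 105 and 63 UMIs (−1.41, interval −1.89 to −0.95), in 43 and 39 cells, and −1.43 without the cells with macrophage UMIs. Tgfb1 was as low in the other classes, at −1.62 (interval −2.23 to −1.03) in CD8-negative T cells, −1.39 (interval −2.002 to −0.81) in NK cells and −1.42 (interval −1.50 to −1.35) in C1q macrophages, so its ratio was not particular to the gated cells. Vopp1 had 27 and 12 UMIs (−1.85, interval −2.96 to −0.82). Aif1, Cd74 and Ly86 are genes of antigen-presenting cells, with 1505, 21441 and 613 CPM in C1q macrophages labelled wt. Their ratios were −1.64, −1.41 and −1.65 in all gated cells and −0.75, −0.96 and −0.97 without the cells with macrophage UMIs, and the part of other cells in these values was not otherwise tested.

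The other lymphoid classes gave different values for several of these genes, by the same pooled counts. Ccr7 was at 1.24 (interval 0.29 to 2.30) in CD8-negative T cells and −2.31 (interval −5.51 to −0.14) in NK cells, against 1.10 in the gate. Ly6c2 was at 0.39 (interval 0.00 to 0.79) and −1.47 (interval −2.002 to −0.96), against −1.15. Bhlhe40 was at 0.17 (interval −0.39 to 0.74) and 1.04 (interval 0.55 to 1.54), against 0.99, and Junb at 0.06 (interval −0.24 to 0.36) and 0.03 (interval −0.32 to 0.39), against 1.34. Lag3 was at −0.91 (interval −1.67 to −0.17) and −0.14 (interval −0.61 to 0.33), against 0.46, and Ube2c at −1.38 (interval −2.02 to −0.75) and −1.20 (interval −2.20 to −0.29), against 0.96. With 1 library per group a difference between classes in these ratios was not tested.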

How the data were processed

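CD45+ cells were captured with the 10x Genomics 3′ kit, version 2, as 1 library per group. The authors deposited raw UMI counts per gene and cell for called cells only, over 27998 genes. Build mm10, Cell Ranger and Seurat are named in the submitters' processing notes, and versions are not given in the sources used here. The lowest totals per deposited cell were 3184 and 3187 UMIs. Some list genes are counted in their lists but not reported singly here. Rows for miR-21 and the T cell receptor constant genes were not analysed here.

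Libraries were grouped by title. Gated cells were summed per library, CPM were taken over all genes, and log2 ratios carry exact conditional binomial 95% intervals. Shares carry exact (Clopper-Pearson) intervals. UMIs were treated as independent molecules, so intervals cover counting error only and not the spread between mice. Cells were thinned to 3000 UMIs with a fixed seed for shares, with 100 other draws as an alternative added later, and all gated cells were at least that deep. The members and gene lists were chosen with earlier results of these data known. Named genes were the list members, described by role, and the 10 highest and 10 lowest ratios outside the lists, by the value nearer 0 of the ratio with and without each library's top cell (at least 30 UMIs in at least 20 cells, without gate, mitochondrial, ribosomal protein and granzyme genes). The ratio script was tested on simulated data. Scrublet scored doublets. Its automatic threshold marked 2 and 6 cells (0.0817% and 0.221%), under 0.5%, so it was taken not to have worked, doublets were kept, and the 48 and 59 highest scores were left out as an alternative. Gene positions are from GENCODE release M21. Tools were Python 3.11.15, numpy 2.4.6, scipy 1.17.1, pandas 2.3.3, scanpy 1.11.5, matplotlib 3.10.9, and edgeR 4.0.16 under R 4.3.3 for TMM scaling factors of the counts.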

Additional observations from a re-analysis of the deposited data

Results flagged for a closer look

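Ifng outside the gate was the 1 signal noted in data that the comparisons did not use. Cells with at least 2 CD3 UMIs that did not meet the CD8 or C1q limits held 436 Ifng UMIs in 108 cells of the library labelled wt and 19 in 113 cells of that labelled cko. Both are above the limit of 3 UMIs set here for a count of 0. One cell of 5898 UMIs labelled wt held 343 of the 436, with 3 CD3 UMIs, no CD8 UMI, 3 C1q UMIs and 5.34% mitochondrial UMIs. In the library labelled cko the highest such cell held 5. The gated cells held 128 and 369 Ifng UMIs. The cause was not tested.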

How the results depend on the processing

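With 1 library per group, neither a spread between mice nor a left-out replicate could be had. No paired analysis was possible because each group holds 1 library. Of 158 values of the counts, list medians and shares under the alternatives, 133 stayed within 1.5-fold (counts) or within the main counting interval. So did 175 of 179 medians of other lists and 836 of 969 ratios of 108 named genes. For a list median that interval ran from the median of its members' lower bounds to the median of their upper bounds. The G2 and M median counted as kept when it fell from 0.56 to 0.06 in non-cycling cells (bounds −0.10 to 1.01). The tallies thus do not measure how steady a list median was. The cause of the differences below was not tested.

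In the cells with no C1q UMI (0.941% and 0.925% of cells, 23 and 25 cells) 100 genes were higher and 177 lower, the effector cytokine median was −0.25, the G2 and M median −0.33 and the interferon median 0.039. There the shares with 3 or more inhibitory receptors were 17.4% labelled wt and 28.0% labelled cko, and the cycling shares 21.7% and 12.0%. Both were in the opposite order to the main draw of all gated cells. Over 100 other draws, added after the data were seen, the receptor medians there were 26.1% and 24.0%. In all gated cells these medians were 25.4% and 29.1%, with the share labelled cko higher in 90 draws. Gene ratios that changed sign there were Tpx2 −0.65, Cd160 −0.62, Cdc20 −1.92, Cenpa −0.18, Nkg7 −0.11, Ifngr1 −0.041, Ccl4 −0.25, Id2 −0.11, Ndrg1 −0.33, Rrn3 −1.33, Gbp2 0.37, Isg15 0.72, Irf7 0.84, Bst2 0.34 and Ifit1 0.95. Without high doublet scores Isg15 was 0.031 and Ifit1 0.41, and without the cells with macrophage UMIs 0.14 and 0.41. In non-cycling cells 320 genes were higher, and the ratios of Tpx2 (−0.53), Cdc20 (−2.85), Cdca3 (−2.53), Rad51ap1 (−1.11), Ccr2 (0.020), Ccl9 (−0.10) and Id2 (−0.058) changed sign. With a mean over cells Nkg7 was −0.020. TMM scaling changed no sign.

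Counts of genes followed the UMI minimum by construction, with 1200 higher and 1008 lower at a minimum of 10 UMIs, 82 and 54 at 100, and 1676 and 2028 with none. Shares followed the depth per cell. The order of the shares with 3 or more receptors also turned with the thinning draw (28.2% and 24.5% in 1 draw, medians 25.4% and 29.1% over 100 others). Thinned to 1000 UMIs, 3 or more receptors were in 2.82% and 8.18% of cells, a memory gene in 23.9% and 22.7%, and 18.3% and 19.1% were cycling. Without thinning the values were 52.1% and 64.5%, 62.0% and 70.0%, and 38.03% and 43.6%.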
